A study of Mus musculus with 8 samples.

Results

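Activated T cells import amino acids through a small set of plasma membrane carriers. Here 10 of these were followed in cultures set up to induce regulatory T cells (iTregs). The cells came from control mice and from mice whose floxed *Tdrd3* is deleted by *Foxp3*-driven Cre. The 10 were *Slc7a5*, *Slc3a2*, *Slc7a1*, *Slc7a6*, *Slc7a11*, *Slc1a4*, *Slc1a5*, *Slc38a1*, *Slc38a2* and *Slc43a1*. They were taken by gene name from a table of 11911 genes, all 10 were listed, and all 10 were among the 11317 genes with enough counts to be tested. RNA-seq of total RNA depleted of ribosomal RNA gave 8 libraries: 4 labelled WT, of *Foxp3*YFP-Cre genotype (called controls here), and 4 labelled KO, of *Tdrd3*fl/fl/*Foxp3*YFP-Cre genotype (knockouts). Naïve splenic CD4+ T cells of C57BL/6J background were stimulated for 36 h through CD3 and CD28 with TGF-β and antibodies that neutralize IL-4 and IFN-γ. Both groups carry *Foxp3*YFP-Cre, and only the knockouts carry the floxed *Tdrd3* alleles. Cre is made from the *Foxp3* locus, so *Tdrd3* is deleted only in cells that have turned on *Foxp3*, and the methods name no sort for YFP before RNA was taken. The mice are described as independent animals, with no age given for those used in the RNA-seq. The methods speak of 3 replicates per group, whereas 4 per group are labelled and used here.

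A resting naïve T cell imports few amino acids. On stimulation through its antigen receptor it makes large amounts of the carrier for leucine and other large neutral amino acids, a heterodimer of the SLC7A5 light chain and the SLC3A2 heavy chain, together with carriers for glutamine, cystine and arginine. The imported leucine and arginine are sensed at the lysosome by the kinase complex mTORC1, and the genes of many carriers are known targets of MYC and, when amino acids run short, of ATF4.

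The targeted gene and the identity of the cells were checked first. *Tdrd3* RNA was 18.8, 15.1, 9.95 and 17.7 CPM (the count scaled to the library's TMM-adjusted total) in the libraries labelled control 1 to 4 and 13.7, 10.7, 12.9 and 11.1 CPM in knockouts 1 to 4. The library labelled control 3 thus held less *Tdrd3* RNA than any knockout. Counts over the 10 transporters, and the values of some genes, are also given below without it. Knockout libraries thus kept *Tdrd3* RNA. In the 17 alternative fits described below, the log2 fold change of *Tdrd3* was always below 0, from −0.51 to −0.23. By the test of each fit, its unadjusted p was below 0.05 in 11 and its adjusted p in 0. *Foxp3*, the regulatory T cell factor, had 110 ± 12.5 CPM (SD, n = 4) in controls and 88.4 ± 13.3 CPM in knockouts, and *Klf2* had 56.9 ± 5.13 against 34.0 ± 12.4 CPM. *Cd4*, *Cd3e* and *Cd3d* summed to between 845 and 940 CPM in every library. The defining B cell, myeloid and NK cell markers summed to at most 2.71, 2.11 and 1.43 CPM, and no erythroid marker was listed. *Cd8a*, a marker of CD8+ T cells, stood at 11.3 CPM in the library labelled control 3 and between 0.436 and 1.37 CPM in the other 7 libraries, and *Cd8b1*, the other marker, at 5.64 to 10.5 CPM in all 8. Both were lower in knockouts at an unadjusted p below 0.05 in edgeR's test, and the pair summed to 7.72 to 21.8 CPM in controls and 6.68 to 8.35 CPM in knockouts. Of 4 regulatory T cell markers, 3 (*Foxp3*, *Il2ra* and *Ikzf2*) were lower in knockouts at an unadjusted p below 0.05 in edgeR's test. The share of all tested genes lower in this way was 4.91%. *Ctla4*, the other marker, had 564 ± 19.7 CPM (SD, n = 4) in controls and 589 ± 28.7 CPM in knockouts. The list summed to 2966 to 3125 CPM in controls and 2815 to 2920 CPM in knockouts. Most of that sum was *Il2ra*, with a mean of 2268 CPM in controls and 2076 CPM in knockouts. Of 5 markers of activated T cells 1, *Il2ra*, was lower. Their part in the results below was not tested. Total counts ranged from 13258239 to 16001676 per library, so that 3 counts correspond to 0.188 to 0.225 CPM.

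Promoter sequence was available in the reference for 7 of the 10 transporters, and 3 of them held a short motif of interest. The motifs searched on both strands were TGATGNAA, the composite element bound by C/EBP and ATF family proteins such as ATF4, and CACGTG, the E-box bound by MYC and its partner MAX and by the MiT/TFE factors. The search window ran from 250 bases before the start of transcription to 50 bases from it. TGATGNAA occurred in the windows of *Slc7a11* and *Slc1a4*. It occurred in 4.51% of all 27025 genes with a window, and in 3.97% of all 32851 windows. CACGTG occurred in the window of *Slc43a1*, in 8.09% of all these genes and in 7.15% of all windows. The stretches that hold these motifs are shown beside that of *Asns*, an enzyme gene that the transporters are set beside. The *Asns* window held TGATGNAA, as did those of *Slc7a11* and *Slc1a4*, and no CACGTG. Each runs 5′ to 3′ from 100 bases before the start to 20 bases from it, with the motif in capitals, and was taken from RefSeq on GRCm38.p6.
Slc7a11, chr3:50443594-50443713, minus strand: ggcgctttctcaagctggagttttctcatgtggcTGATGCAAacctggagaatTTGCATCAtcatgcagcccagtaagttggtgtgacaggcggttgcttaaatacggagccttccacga
Slc1a4, chr11:20332694-20332813, minus strand: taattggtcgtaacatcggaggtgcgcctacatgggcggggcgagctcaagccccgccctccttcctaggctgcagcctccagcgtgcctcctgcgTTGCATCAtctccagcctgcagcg
Slc43a1, chr2:84840223-84840342, plus strand: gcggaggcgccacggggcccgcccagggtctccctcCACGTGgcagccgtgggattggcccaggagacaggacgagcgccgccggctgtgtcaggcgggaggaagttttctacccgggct
Asns, chr6:7693190-7693309, minus strand: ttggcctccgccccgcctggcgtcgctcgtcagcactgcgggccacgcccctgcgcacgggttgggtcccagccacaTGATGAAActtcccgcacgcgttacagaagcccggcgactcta
In *Slc7a11* the element occurs at 2 places in opposite orientation, from −66 to −59 and from −47 to −40 relative to the start (counted as +1). In *Slc1a4* it lies across the start, from −4 to 4, and in *Asns* it lies from −23 to −16. The E-box of *Slc43a1* lies from −64 to −59. No match was found in the windows of *Slc3a2*, *Slc7a1*, *Slc7a6* and *Slc38a2*, which says only that these letters are not in these windows.

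The transporters differed widely in level. Per kb of the canonical transcript, *Slc7a5* stood highest at 211 CPM per kb (mean of 8 libraries), followed by *Slc1a5*, a glutamine and small neutral amino acid exchanger, at 143 and *Slc3a2* at 98.1. *Slc7a1* (61.7), *Slc38a1* (59.1) and *Slc38a2* (55.9 CPM per kb) formed the next group, and the ranges of neighbours in it overlapped over the 8 libraries. *Slc38a1* and *Slc38a2* also changed places when the length of all annotated exons was used in place of the canonical transcript. *Slc7a6* had 26.7, *Slc1a4* 14.7, *Slc43a1* 2.36 and *Slc7a11* 0.193 CPM per kb. Between these 4, and between *Slc7a5*, *Slc1a5* and *Slc3a2*, no ranges of neighbouring genes overlapped.

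**Figure D1:**
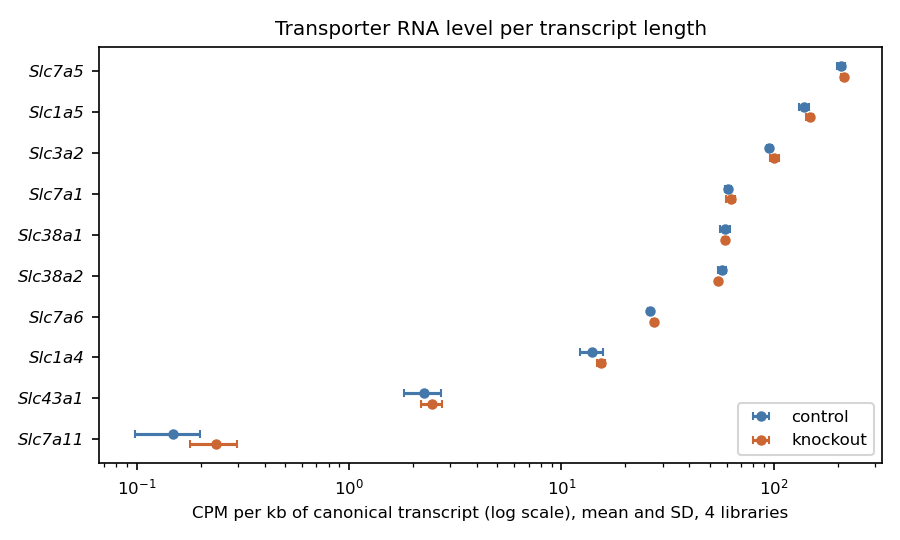
Level of each transporter in CPM per kb of canonical transcript (horizontal log axis), as the mean and SD of 4 control and 4 knockout libraries. *Slc7a5* at 211 and *Slc7a11* at 0.193 CPM per kb are the ends of the order, and the genotype means lie close together for all but *Slc7a11*.

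No transporter passed a Benjamini-Hochberg adjusted p of 0.05 in the quasi-likelihood test of edgeR, where 0.265% of all tested genes did. At an unadjusted p below 0.05 in the same test, 1 of 10, *Slc7a11*, was higher in knockouts against 4.38% of all tested genes, and 0 of 10 were lower against 4.91%. In 0 of 10 was every knockout library above every control library, against 2.25% of all tested genes. The log2 fold change of knockout over control was above 0 in 8 of 10 transporters, against 50.6% of all tested genes, with a median of 0.07 against 0.00132. For 7 of 10, the 95% interval of the fold change lay wholly within 1.2-fold in either direction, the exceptions being *Slc7a11*, *Slc43a1* and *Slc1a4*. The summed RNA of the 10 genes was 2654 ± 102 CPM (SD, n = 4) in controls and 2727 ± 58.6 CPM in knockouts, with ranges of 2563 to 2800 and 2649 to 2790 CPM. These are bulk libraries, in which fewer cells that express a gene and less of its RNA per cell cannot be told apart. The edgeR p-values set the difference between genotypes against the spread between libraries of a genotype, estimated with information from all tested genes.

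**Figure D2:**
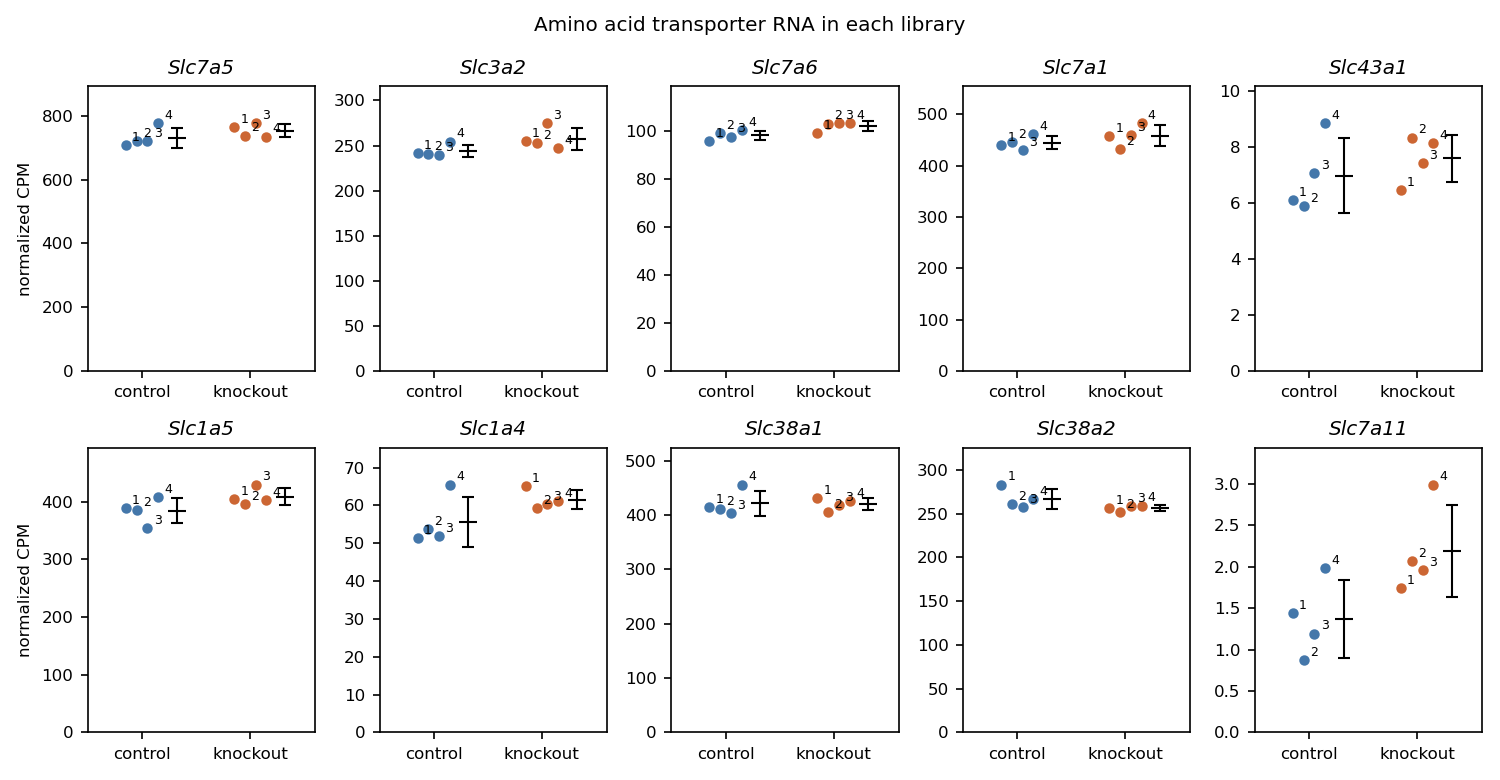
Normalized CPM (vertical axis, from 0, with its own scale in each panel) of the 10 transporters in each library, with the replicate number beside each point and the mean ± SD of 4 libraries at its right. The groups overlap in every panel, and control 4 is the highest control in 9 of 10.

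Among the carriers of large neutral amino acids, the genes of the LAT1 heterodimer had narrow intervals around small fold changes. *Slc7a5* (chromosome 8 of GRCm39, 122607889 to 122634433, minus strand) encodes LAT1, the light chain that exchanges glutamine for leucine and its like. It had 707, 721, 720 and 777 CPM in the libraries labelled control 1 to 4 and 764, 738, 777 and 735 CPM in knockouts 1 to 4. Controls 1 to 3 were the lowest libraries, and control 4 lay at the top of the knockout range, so that the groups overlapped. Its log2 fold change was 0.04 ± 0.038 (SE, n = 4 per group), with a 95% interval from −0.04 to 0.12 and an adjusted p of 0.833 in edgeR's test (two-sided exact permutation test on log2 CPM, p = 0.229). It was 0.03 without control 1 or knockout 3 and 0.07 without control 4.

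*Slc3a2* (chromosome 19, 8684246 to 8700733, minus strand) encodes 4F2hc, also called CD98, the heavy chain that brings LAT1 and several other light chains to the cell surface. It had 242, 241, 239 and 254 CPM in controls and 255, 252, 275 and 247 CPM in knockouts. Knockout 3 stood highest, and control 4 lay above knockouts 2 and 4. Knockouts exceeded controls by a log2 fold change of 0.08 ± 0.042 (SE, n = 4 per group), with a 95% interval from −0.01 to 0.17 (edgeR unadjusted p = 0.0833, adjusted p = 0.623). Without knockout 3 this value was 0.04, and without control 4 it was 0.10. The ratio of light to heavy chain RNA, *Slc7a5* over *Slc3a2* CPM within a library, ranged from 2.92 to 3.05 in controls and from 2.83 to 2.99 in knockouts. Exons of *Slc3a2* overlap those of the antisense non-coding gene *Snhg1* over 15.9% of their length, and the strand setting of the counting is not given in the sources used here.

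*Slc43a1* (chromosome 2, 84669194 to 84693938, plus strand) encodes LAT3, which carries branched-chain amino acids without a heavy chain and whose promoter stretch above holds the E-box. It had 6.09, 5.89, 7.08 and 8.85 CPM in controls and 6.46, 8.34, 7.44 and 8.15 CPM in knockouts, from 81 to 133 counts per library. Control 4 was the highest of all 8 libraries and the groups overlapped. The interval was wide at this depth, from −0.21 to 0.46 on the log2 scale around 0.12 ± 0.159 (SE, n = 4 per group; edgeR adjusted p = 0.889). Leaving out 1 library moved it between 0.05 (without control 2) and 0.26 (without control 4).

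The carriers of cationic amino acids likewise had intervals within 1.2-fold. *Slc7a1* (chromosome 5, 148264220 to 148336714, minus strand) encodes CAT1, the main importer of arginine and lysine. It had 439, 447, 431 and 462 CPM in controls and 458, 432, 460 and 483 CPM in knockouts, with knockout 4 highest and knockout 2 next to the lowest control. Its log2 fold change was 0.04 ± 0.040 (SE, n = 4 per group), with an interval from −0.04 to 0.13 and an adjusted p of 0.843 in edgeR's test. It was 0.02 without knockout 4, 0.03 without the library labelled control 3 and 0.07 without knockout 2.

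*Slc7a6* (chromosome 8, 106895489 to 106925338, plus strand) encodes a light chain of SLC3A2 that exchanges arginine for neutral amino acids. It had 95.6, 99.0, 97.6 and 100 CPM in controls and 99.1, 103, 103 and 103 CPM in knockouts. Knockouts 2 to 4 lay above every control, and knockout 1 lay just above control 2 and below control 4. At 0.06 ± 0.045 (SE, n = 4 per group) for the log2 fold change, the interval ran from −0.04 to 0.15, and the exact permutation test gave p = 0.0571 where the smallest p it allows is 0.0286 (edgeR adjusted p = 0.794).

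The exchangers of small neutral amino acids had log2 fold changes of 0.09 and 0.14. *Slc1a5* (chromosome 7, 16515265 to 16532199, plus strand) encodes ASCT2, an exchanger of glutamine, alanine, serine and threonine. It had 389, 385, 355 and 408 CPM in controls and 404, 396, 429 and 403 CPM in knockouts. The library labelled control 3 was the lowest and knockout 3 the highest, and control 4 lay within the knockout range. Around the log2 fold change of 0.09 ± 0.044 (SE, n = 4 per group) the interval ran from −0.01 to 0.18 (edgeR unadjusted p = 0.0627, adjusted p = 0.576). Without the library labelled control 3 the log2 fold change was 0.05.

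*Slc1a4* (chromosome 11, 20252180 to 20282713, minus strand) encodes ASCT1, an exchanger of serine, alanine and cysteine that, like *Slc7a11*, holds the TGATGNAA element shown above. It had 51.3, 53.7, 51.9 and 65.5 CPM in controls and 65.1, 59.4, 60.3 and 61.2 CPM in knockouts. Controls 1 to 3 lay below every knockout, and control 4 lay above every knockout. With all libraries the log2 fold change was 0.14 ± 0.072 (SE, n = 4 per group), with an interval from −0.01 to 0.30 (edgeR unadjusted p = 0.0582, adjusted p = 0.561). The exact permutation test on log2 CPM with all libraries gave p = 0.143. Without control 4 the log2 fold change was 0.23 ± 0.061, with an edgeR unadjusted p of 0.00121 (adjusted p = 0.0915). That was the highest value of the 17 alternatives run, and the lowest was 0.04. An unadjusted p below 0.05 was reached in 3 of the 17. Exons of *Slc1a4* overlap the antisense gene *Gm72467* over 7.37% of their length. Antisense non-coding genes also overlap exons of *Slc38a1* (6.53% and 6.34%), *Slc38a2* (2.11%), *Slc7a1* (0.900%) and *Asns* (3.34%).

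Both sodium-coupled importers of the SLC38 family had fold changes below 0. *Slc38a1* (chromosome 15, 96469299 to 96540794, minus strand), which brings in glutamine, had 414, 411, 403 and 456 CPM in controls and 431, 406, 418 and 425 CPM in knockouts. Control 4 was again the highest library, and the other 7 lay between 403 and 431 CPM. The log2 fold change was −0.0034 ± 0.042 (SE, n = 4 per group), with an interval from −0.09 to 0.08 and an adjusted p of 0.988 in edgeR's test, and it turned positive without control 4 (0.04) or knockout 2 (0.01). *Slc38a2* (chromosome 15, 96585273 to 96597611, minus strand), an importer of alanine, glutamine and other small amino acids that is made in larger amounts in starved cells, had 283, 261, 258 and 266 CPM in controls and 257, 252, 259 and 259 CPM in knockouts. It was the only transporter whose highest control was control 1, and the library labelled control 3 lay within the knockout range. Its log2 fold change was −0.06 ± 0.040 (SE, n = 4 per group), with an interval from −0.14 to 0.03 and an adjusted p of 0.754 in edgeR's test, and without control 1 it was −0.03.

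*Slc7a11* had the largest fold change of the 10 and the lowest counts. It (chromosome 3, 49846975 to 50398063, minus strand) encodes xCT, the light chain that imports cystine in exchange for glutamate and so feeds glutathione synthesis. It had 1.44, 0.873, 1.19 and 1.98 CPM in controls and 1.74, 2.07, 1.95 and 2.99 CPM in knockouts, which rest on 12 to 44 counts per library. Knockout 4 stood highest and control 2 lowest, and control 4 lay above knockouts 1 and 3. The log2 fold change was 0.67 ± 0.311 (SE, n = 4 per group), with an interval from 0.02 to 1.32 (edgeR unadjusted p = 0.0437, adjusted p = 0.514), and the two-sided exact permutation test gave p = 0.0857. This unadjusted p stayed below 0.05 when control 4 or knockout 1 was left out. It rose to 0.0662, 0.136 and 0.0940 without the libraries labelled control 1, 2 and 3, and to 0.0580, 0.0525 and 0.169 without knockouts 2, 3 and 4. The fold change on the log2 scale was 0.51 without control 2, 0.48 without knockout 4 and 0.90 without control 4.

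**Figure D3:**
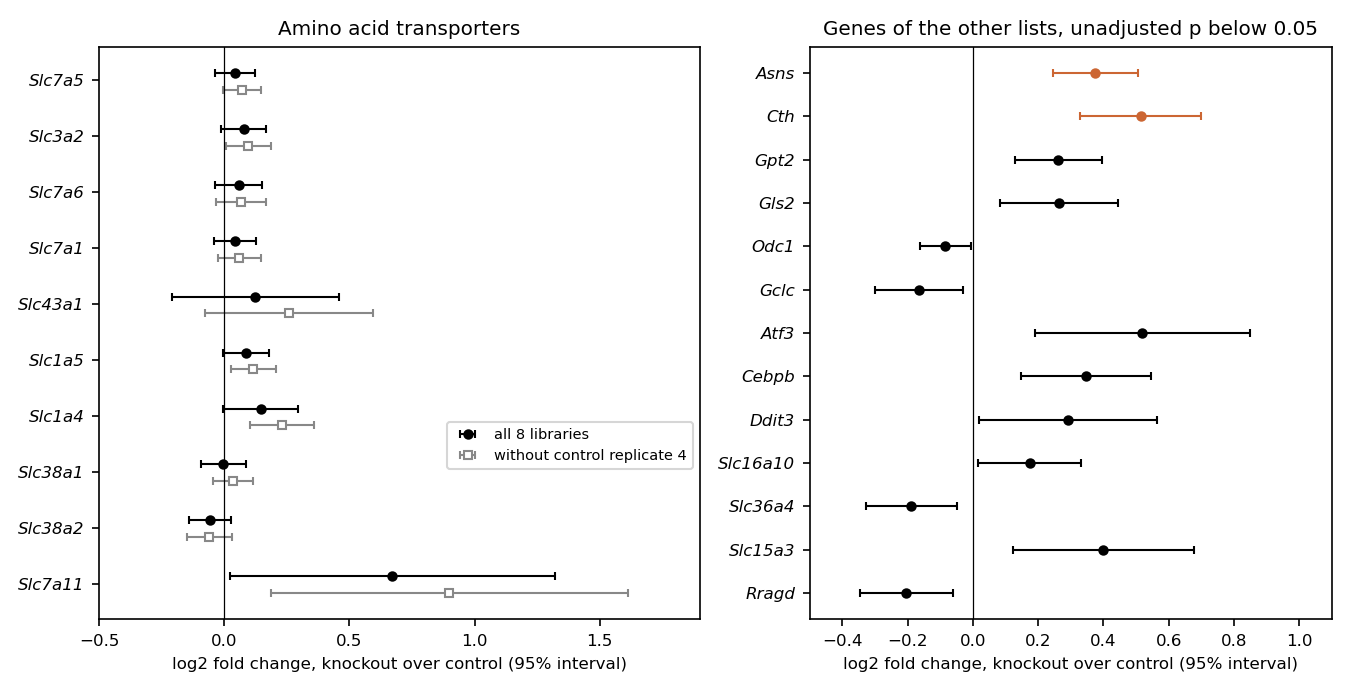
Log2 fold change of knockout over control with its 95% interval from edgeR (horizontal axes, of different range), for the 10 transporters with all 8 libraries (filled) and without control 4 (open squares) on the left, and on the right for the genes of the other lists with an unadjusted p below 0.05, orange where the adjusted p is below 0.05. Of the transporters only *Slc7a11*, at 0.67, has an interval that leaves out 0 with all libraries, and *Asns* and *Cth* are the orange genes.

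Control 4 stood apart from the other controls in the transporters. It was the highest control for 9 of 10 transporters, the exception being *Slc38a2*, whereas it was the highest control for 27.1% of all tested genes. Against controls 1 to 3 alone, every knockout library was higher for 6 of 10 transporters (*Slc7a5*, *Slc3a2*, *Slc7a6*, *Slc7a11*, *Slc1a4* and *Slc1a5*), and for 4.82% of all tested genes. The mean of the 10 z-scores was −0.57, −0.73, −0.96 and 0.84 in controls 1 to 4 and 0.22, −0.03, 0.68 and 0.55 in knockouts 1 to 4. When control 4 was left out of the edgeR fit, *Slc3a2*, *Slc1a4*, *Slc1a5* and *Slc7a11* were higher in knockouts at an unadjusted p below 0.05, which makes 4 of 10 against 5.03% of all tested genes, and still 0 of 10 passed the adjusted threshold. Both comparisons without control 4 were chosen after the values were seen. Control 4 was picked as the highest control for 9 of 10 transporters, and leaving it out by itself raises both counts. The shares of all tested genes carry no such choice, so the counts beside them are descriptions and not a test. In control 4 *Cd4* stood at 652 CPM against 622 to 634 CPM in the other controls, and *Foxp3* at 93.8 against 107 to 122, and their part in the result was not tested. Without the library labelled control 3, 8 of 10 fold changes were above 0 and 0 of 10 passed an unadjusted p of 0.05. In that edgeR fit 4.94% of all tested genes were higher at this threshold.

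**Figure D4:**
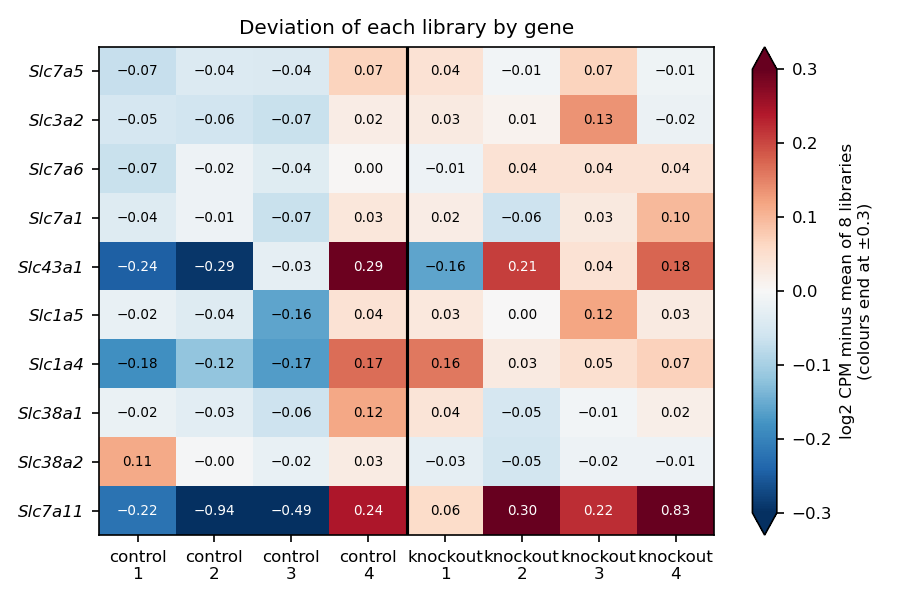
Deviation of each library (columns) from the gene's mean over 8 libraries for the 10 transporters (rows), in log2 CPM, with the value printed in each cell and colours that end at 0.3. Control 4 is above the mean in all 10 rows and controls 1 to 3 are below it in all but 1 of their cells, *Slc38a2* in control 1.

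Some pairs of transporters varied together between libraries, control 4 included. Over the 8 libraries, the highest Pearson's r of log2 CPM was 0.87, between *Slc7a5* and *Slc1a4*. Next came 0.85 between *Slc7a5* and its heavy chain *Slc3a2*, and 0.85 between *Slc1a5* and *Slc3a2*. *Slc38a2* had a negative r with 8 of the other 9. Among the pairs without *Slc38a2* the lowest r was 0.13, between *Slc7a6* and *Slc38a1*. After the genotype means were subtracted the first 3 of these values were 0.84, 0.82 and 0.77, and that between *Slc1a4* and *Slc38a1* was 0.94, and *Slc38a2* had a negative r with 4 of the other 9. The tested genes whose pattern was most like the mean z-score of the 10, with the 10 left out, were *Rbm20* (r = 0.97), *Ptpn12* (0.96), *Larp1* (0.96), *Rab11fip4* (0.95) and *Hivep3* (0.95). Of these, *Hivep3* had 307 CPM in control 4 and 221 to 239 CPM in the other controls, the same high library as the transporters. *Rbm20* had at most 2.33 CPM. These correlations share libraries and scaling and are given as descriptions.

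Of 19 further plasma membrane carriers, 11 were in the table and 8 had enough counts to be tested. At an unadjusted p below 0.05, 1 was higher and 1 lower, against 4.38% and 4.91% of all tested genes. *Slc16a10*, which lets aromatic amino acids pass, had 33.9, 30.9, 34.6 and 38.1 CPM in controls and 39.6, 36.6, 36.3 and 42.6 CPM in knockouts, a log2 fold change of 0.17 ± 0.076 (SE, n = 4 per group; edgeR adjusted p = 0.485). *Slc36a4*, a high-affinity carrier of proline and tryptophan, had 43.3, 42.4, 40.3 and 38.5 CPM in controls and 34.8, 38.0, 33.9 and 37.5 CPM in knockouts, where every knockout lay below every control, as in 2.63% of all tested genes. It was lower in knockouts by a log2 fold change of −0.19 ± 0.067 (SE, n = 4 per group; edgeR adjusted p = 0.318).

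Of 8 lysosomal carriers, all tested, 1 was higher and 0 were lower at an unadjusted p below 0.05. Over all tested genes 4.38% were higher and 4.91% lower. Every knockout lay below every control for 1 of the 8, *Slc38a7*, named only for this, against 2.63% of all tested genes. *Slc15a3*, a carrier of histidine and short peptides, had 25.8, 25.8, 21.7 and 24.1 CPM in controls and 39.5, 26.1, 23.7 and 39.3 CPM in knockouts, so that knockouts 1 and 4 were high and knockouts 2 and 3 lay near the controls. Its log2 fold change was 0.40 ± 0.133 (SE, n = 4 per group; edgeR adjusted p = 0.277). Without knockouts 1 and 4 together that value was 0.03. Its relative *Slc15a4* had a log2 fold change of −0.09. Of 36 genes of the mTORC1 amino acid sensing machinery, all tested, 0 were higher and 1 was lower at that threshold. The shares of all tested genes were again 4.38% and 4.91%. *Rragd*, the gene of a Rag GTPase that helps bring mTORC1 to the lysosome, had 68.5, 74.6, 66.6 and 63.7 CPM in controls and 52.1, 64.4, 61.8 and 58.9 CPM in knockouts, a log2 fold change of −0.20 ± 0.068 (SE, n = 4 per group; edgeR adjusted p = 0.277). *Sesn3*, a stress-induced regulator of this pathway and the gene of the list with the highest mean CPM, had a log2 fold change of 0.06.

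Among 22 tested enzymes that use the carried amino acids, 4 were higher and 2 lower at an unadjusted p below 0.05. Over all tested genes 4.38% were higher and 4.91% lower. The adjusted threshold was passed by 2 of the enzymes, against 0.265% of all tested genes. *Asns*, asparagine synthetase, had 126, 126, 129 and 138 CPM in controls and 176, 143, 170 and 183 CPM in knockouts. Every knockout lay above every control for 3 of the 22 enzymes, *Asns*, *Cth* and *Gpt2*, against 2.25% of all tested genes. *Asns* rose by a log2 fold change of 0.38 ± 0.062 (SE, n = 4 per group), with an adjusted p of 0.0110 in edgeR's test. *Cth*, which makes cysteine from cystathionine, rose in the same way with a log2 fold change of 0.51 ± 0.088 and an adjusted p of 0.0147 in edgeR's test. The adjusted threshold was missed for *Asns* without control 1 (edgeR adjusted p = 0.0782), knockout 1 (0.0845) or knockout 4 (0.0837). For *Cth* it was missed without control 2 (edgeR adjusted p = 0.0644), the library labelled control 3 (0.0566), knockout 1 (0.104) or knockout 4 (0.102). Without knockouts 1 and 4 together the log2 fold changes were 0.27 and 0.38, and both genes had an unadjusted p below 0.05 in all 17 alternatives run. *Gpt2*, the mitochondrial alanine aminotransferase, had 0.26 ± 0.064 (edgeR adjusted p = 0.0913) and *Gls2*, a glutaminase, had 0.26 ± 0.086 (edgeR adjusted p = 0.267). *Odc1*, which starts polyamine synthesis, had −0.08 ± 0.038, and *Gclc*, the catalytic subunit of glutathione synthesis, had −0.16 ± 0.064, with edgeR adjusted p-values of 0.499 and 0.407.

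Of 11 genes of transcription factors known to act on transporter genes, or of their regulators, 3 were higher and 0 lower at an unadjusted p below 0.05. Over all tested genes 4.38% were higher and 4.91% lower. The stress-response factors *Atf3*, *Cebpb* and *Ddit3* had log2 fold changes of 0.52 ± 0.157, 0.35 ± 0.096 and 0.29 ± 0.130 (SE, n = 4 per group), with adjusted p-values of 0.205, 0.152 and 0.499 in edgeR's test. For all 3 the groups overlapped. *Atf4* itself, named after its values were seen, had 391 to 431 CPM in controls and 405 to 431 CPM in knockouts. *Myc*, named in the same way, had 361 to 416 CPM in controls and 411 to 429 CPM in knockouts, a log2 fold change of 0.08 ± 0.043 with an adjusted p of 0.586 in edgeR's test.

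As a description, added after these values were seen, the ratio of *Asns* to each transporter was taken within each library. *Asns* alone already separates the groups, so the ratio shows how far a transporter moved with it and is not a further test. The ratio to *Slc7a5* was 0.178, 0.174, 0.179 and 0.177 in controls and 0.230, 0.194, 0.219 and 0.249 in knockouts. Control 4 lay between controls 2 and 3 in this ratio, and every knockout lay above every control. Ratios to *Slc3a2*, *Slc7a1*, *Slc7a6*, *Slc38a1* and *Slc38a2* had knockouts above controls in the same way, and those to *Slc1a5*, *Slc1a4*, *Slc43a1* and *Slc7a11* overlapped. The mean log2 difference of the ratio, knockout minus control, was between 0.22 (*Slc1a4*) and 0.43 (*Slc38a2*) for 9 transporters, and −0.34 for *Slc7a11*, whose counts are low.

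**Figure D5:**
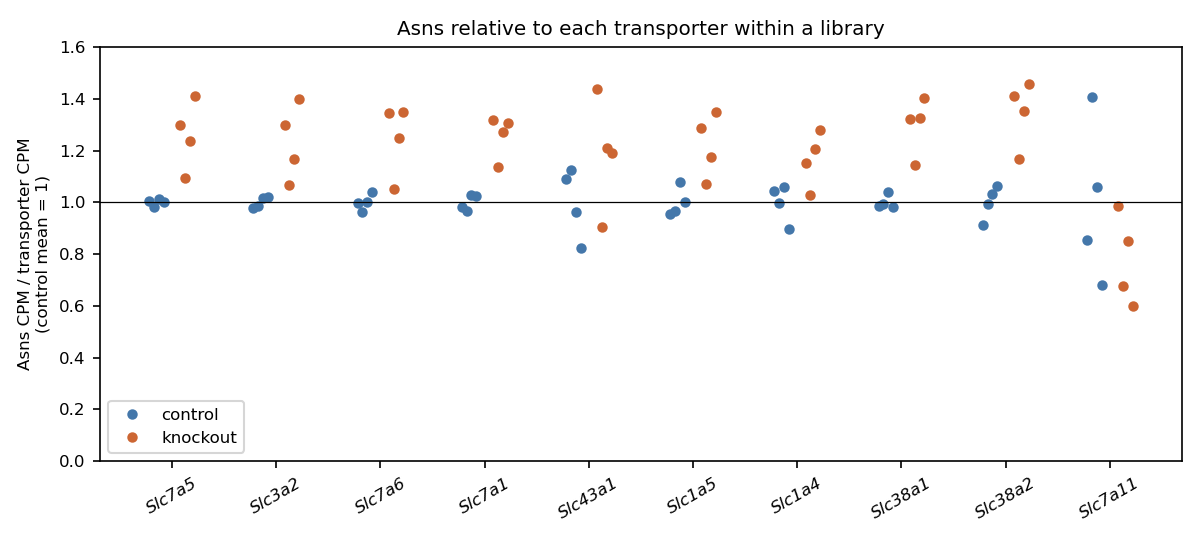
Ratio of *Asns* CPM to the CPM of each transporter within a library (vertical axis, control mean set to 1) for 4 control and 4 knockout libraries. The groups are apart for *Slc7a5*, *Slc3a2*, *Slc7a6*, *Slc7a1*, *Slc38a1* and *Slc38a2* and overlap for the other 4.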

How the data were processed

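RNA was measured in 4 control and 4 knockout libraries. The authors mapped reads to GRCm39 with STAR 2.7.8a and had Partek Flow assign them to genes by expectation and maximization, so that a read matching more than 1 gene is split between them. The deposited values are the resulting estimated counts, filtered by the authors but not normalized. The annotation, the strand setting and the total reads per library are not given in the sources used here, and 43.0% of the values are not whole numbers. For *Slc38a1* the count was not whole (by more than 0.05) in 7 of 8 libraries. The table held 0 columns of other samples.

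Estimated counts were rounded, filtered with filterByExpr (which left out 594 of 11911 genes), scaled by TMM (factors 0.993 to 1.00) and compared between genotypes, with no covariate, by the two-sided quasi-likelihood test of edgeR 4.0.16 in R 4.3.3, adjusting p by Benjamini-Hochberg across the 11317 genes. The scripts were tested on simulated data. The SE of a log2 fold change is its absolute value divided by the square root of edgeR's F statistic. Single members were also compared by an exact permutation test on log2(CPM + 0.5), over the 70 arrangements of 4 against 4. Alternatives used DESeq2 1.42.0, limma 3.58.1 and sva 3.50.0. No libraries of a group were duplicates (chi-square per degree of freedom 2.59 to 6.31). The members, lists and some alternatives were chosen with earlier results of these data known. All 10 members are named, and of the other lists every tested gene with an unadjusted p below 0.05, filled up to 2 genes by mean CPM, unless stated otherwise. Cell type markers are named where their values touch a result. Likeness is Pearson's r with the mean z-score of the members. Levels per kb use the GENCODE M39 canonical transcript, and gene coordinates are those of the deposited table, its end reduced by 1 base because it lay 1 base past the GENCODE end for 3925 genes and at it for 285. Promoters came from RefSeq on GRCm38.p6, with entries for 7 of 10 members and not for *Slc7a5*, *Slc1a5* and *Slc38a1*, and were matched by symbol. The markers of naïve T cells are not reported here.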

Additional observations from a re-analysis of the deposited data

Results flagged for a closer look

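Each member was examined within each group for a library far from the other 3, 20 groups in all, of which chance alone flags about 1 in 20. *Slc7a6* in knockout 1, at 99.1 CPM, lay below the other knockouts, which were at 103 CPM each, and the gap to the nearest of them was 0.964 of the group's range. *Slc1a4* in control 4, at 65.5 CPM, lay above the other controls, which were at 51.3 to 53.7 CPM, with a gap of 0.830 of the range, just past Dixon's critical value.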

How the results depend on the processing

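Under all 17 alternatives run, 0 of 10 transporters passed the adjusted threshold and 0 of 10 were lower at an unadjusted p below 0.05. The number higher at that threshold was 1 in the main fit, and the share of all tested genes is given in brackets (4.38%). It was 0 without a filter on low counts (4.36%), 0 with DESeq2 (3.76%) and 0 with 1 surrogate variable (2.33%). Without knockouts 1 and 4 together it was 0 (1.82%). With voom and quality weights it was 2, *Slc1a4* and *Slc7a11* (5.73%). It ranged from 0 to 4 when 1 library was left out, with 4 (*Slc3a2*, *Slc1a4*, *Slc1a5* and *Slc7a11*) without control 4. In these fits the share of all tested genes ranged from 2.82% without knockout 1 to 5.03% without control 4. The number of all tested genes past the adjusted threshold, 30, was 81 with DESeq2, 95 with voom, 6 with 1 surrogate variable and 3 without knockouts 1 and 4 together, and ranged from 6 (without knockout 1) to 162 (without knockout 2) when 1 library was left out. It was 8, 12, 10 and 90 without the libraries labelled control 1 to 4 and 19 and 7 without knockouts 3 and 4. The cause was not tested. The labels give each library a number and do not say whether equal numbers mark a pair. Same-numbered libraries deviated together with r from −0.046 to 0.069, which cannot decide whether they were prepared together. With the replicate block 87 genes passed and 2 transporters (*Slc1a4* and *Slc7a11*) were higher at an unadjusted p below 0.05, against 4.21% of all tested genes. The log2 fold change of *Slc38a1* was 0.0079 with voom and ranged from −0.0237 to 0.0355 when 1 library was left out, and its mean log2 difference from −0.0227 to 0.0365. That of *Slc7a1* was −0.0107 with 1 surrogate variable. *Sesn3* had −0.0383 with 1 surrogate variable and −0.0497 without knockouts 1 and 4 together, and *Atf4* −0.0050 with 1 surrogate variable. The adjusted threshold was missed for *Asns* in 5 and for *Cth* in 6 of the 17, with unadjusted p below 0.05 in each. Counts of 12 to 44 limit *Slc7a11*, and 81 to 133 limit *Slc43a1*.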
